A study of Mus musculus with 8 samples.

Results

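The genes described here are 10 regulators and targets of the Hippo pathway, measured in R1 mouse embryonic stem cells grown in butyrate or in LIF. They comprise the transcriptional coactivators Yap1 and Wwtr1 and their DNA-binding partners Tead1 and Tead2. They also comprise the inhibitors Amot, Amotl2 and Lats2 and the target genes Ctgf, Cyr61 and Ankrd1. All non-control probes on the array whose gene name or current synonym was one of these were taken, which gave 19 probes of 41174. All 10 genes had a probe bright enough to be tested, among 17190 tested genes of 27670 on the array.

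R1 is an established line of mouse embryonic stem cells, and every culture grew on gelatin in medium with serum replacer. The butyrate cells received 0.2 mM sodium butyrate, a histone deacetylase inhibitor, and no LIF, for 15 passages. The LIF cells received leukaemia inhibitory factor, the cytokine that keeps mouse stem cells self-renewing, and had no feeder layer. Each condition had 4 samples, described as independent. Butyrate and the absence of LIF cannot be told apart, because both differ between the groups. Total RNA of 1 butyrate and 1 LIF sample was hybridised together on each of 4 Agilent arrays of 1 slide. Butyrate RNA carried Cy5 and LIF RNA carried Cy3 on all 4 arrays, and with no dye swap the effects of dye and of treatment cannot be told apart.

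The Hippo pathway restrains growth in response to cell contact, polarity and tension. Its kinases, ending in Lats1 and Lats2, phosphorylate Yap1 and Wwtr1 and keep them out of the nucleus. When the kinases are inactive, Yap1 and Wwtr1 enter the nucleus and bind TEAD factors, which recognise the sequence GGAATG, known as the MCAT element, and switch on genes such as Ctgf and Cyr61. Some of the induced genes, Lats2 and Amotl2 among them, encode inhibitors of the same pathway. In the early mouse embryo the pathway separates the outer trophectoderm from the inner cell mass. Arrays measure RNA only, so neither phosphorylation nor the location of Yap1 was measured. In cultures of mixed cells, fewer cells of a type and less RNA per cell cannot be told apart.

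Because GGAATG is where TEAD factors are known to bind, RefSeq promoter windows (build GRCm38.p6) were searched for it on both strands. Each window ran from 250 bases before a transcript start to 50 bases after it. Windows were found for 8 of the 10 genes, and 6 of those 8 genes held the motif. Across all 27025 genes with a window the share was 16.6%, and across all 32851 windows it was 14.7%. Shown here are 5 promoters that hold it before the start, for 3 inhibitor or target genes and for both coactivators, with the motif in capitals; capitals CATTCC mark the motif on the other strand.
Ankrd1 promoter, chr19:36119845-36120094, - strand: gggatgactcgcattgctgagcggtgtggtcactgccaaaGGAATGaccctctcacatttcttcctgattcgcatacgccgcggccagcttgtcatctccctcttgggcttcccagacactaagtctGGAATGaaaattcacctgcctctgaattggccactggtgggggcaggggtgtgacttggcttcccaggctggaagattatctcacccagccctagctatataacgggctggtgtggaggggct
Cyr61 promoter, chr3:145649986-145650235, - strand: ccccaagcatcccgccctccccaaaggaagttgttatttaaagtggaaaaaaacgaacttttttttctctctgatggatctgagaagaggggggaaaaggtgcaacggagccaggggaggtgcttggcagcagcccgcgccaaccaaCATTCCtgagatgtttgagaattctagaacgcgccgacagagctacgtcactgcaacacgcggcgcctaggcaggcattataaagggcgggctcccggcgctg
Amotl2 promoter, chr9:102717554-102717803, + strand: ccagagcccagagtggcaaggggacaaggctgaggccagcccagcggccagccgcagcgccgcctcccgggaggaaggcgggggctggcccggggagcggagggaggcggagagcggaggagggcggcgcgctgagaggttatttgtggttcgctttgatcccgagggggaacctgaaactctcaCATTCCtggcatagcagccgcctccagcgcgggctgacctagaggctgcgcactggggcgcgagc
Wwtr1 promoter, chr3:57575911-57576160, - strand: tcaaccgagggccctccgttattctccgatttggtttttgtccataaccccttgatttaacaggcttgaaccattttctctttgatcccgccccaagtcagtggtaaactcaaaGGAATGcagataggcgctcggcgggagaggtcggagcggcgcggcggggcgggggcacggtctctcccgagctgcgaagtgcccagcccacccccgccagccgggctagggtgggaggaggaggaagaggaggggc
Yap1 promoter, chr9:8004597-8004846, - strand: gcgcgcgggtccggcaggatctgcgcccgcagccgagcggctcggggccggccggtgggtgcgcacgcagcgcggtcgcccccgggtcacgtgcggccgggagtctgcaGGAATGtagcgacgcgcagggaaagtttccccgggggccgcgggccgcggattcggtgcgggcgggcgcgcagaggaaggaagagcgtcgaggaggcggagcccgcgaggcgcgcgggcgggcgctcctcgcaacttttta

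Counting the last base before the start as -1, the first copy in Ankrd1 lay at -210 to -205 and the second at -123 to -118. Only 1.36% of all windows held 2 or more copies. In Cyr61 the motif lay at -103 to -98 and in Amotl2 at -65 to -60, both on the other strand. In the upstream window of Wwtr1 it lay at -136 to -131, and in Yap1 at -141 to -136. Lats2 held it just after the start, at 5 to 10, and the windows of Tead2 and Amot held no copy. The CArG box, the element bound by serum response factor, was searched in its strict form, CCWWWWWWGG, where W is A or T. That form was found in 0 of the 8 genes and in 1.63% of all windows. Variant forms and sites outside the windows were not searched. A match describes the letters in the window and does not show binding. Yap1 and Amotl2 each hold 1 copy, and with loess scaling their ratios differed in sign, as described below. Any link between the motif and the ratios was not tested.

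Of the 10 genes, 9 were higher in butyrate and 1, Yap1, was lower, each at an adjusted p below 0.05. Across all tested genes 41.7% were higher and 33.3% were lower by the same test, so passing it was common (75% in either direction). In all, 7 of the 10 were at least 2-fold higher, against 4.97% of all tested genes, and 0 were at least 2-fold lower, against 1.97%. The median log2 ratio of butyrate over LIF was 1.65 over the 10 genes and 0.03 over all tested genes. The 10 genes were chosen with earlier results of these data known, so these shares describe them and test nothing. Adjusted p-values come from limma's moderated test of the 4 log2 ratios against 0, with Benjamini-Hochberg adjustment over all tested genes. Signals are normalised scanner intensities that include an added 50 units, and they can be compared within a probe but not between probes. Errors are the standard deviation over 4 arrays.

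**Figure D1:**
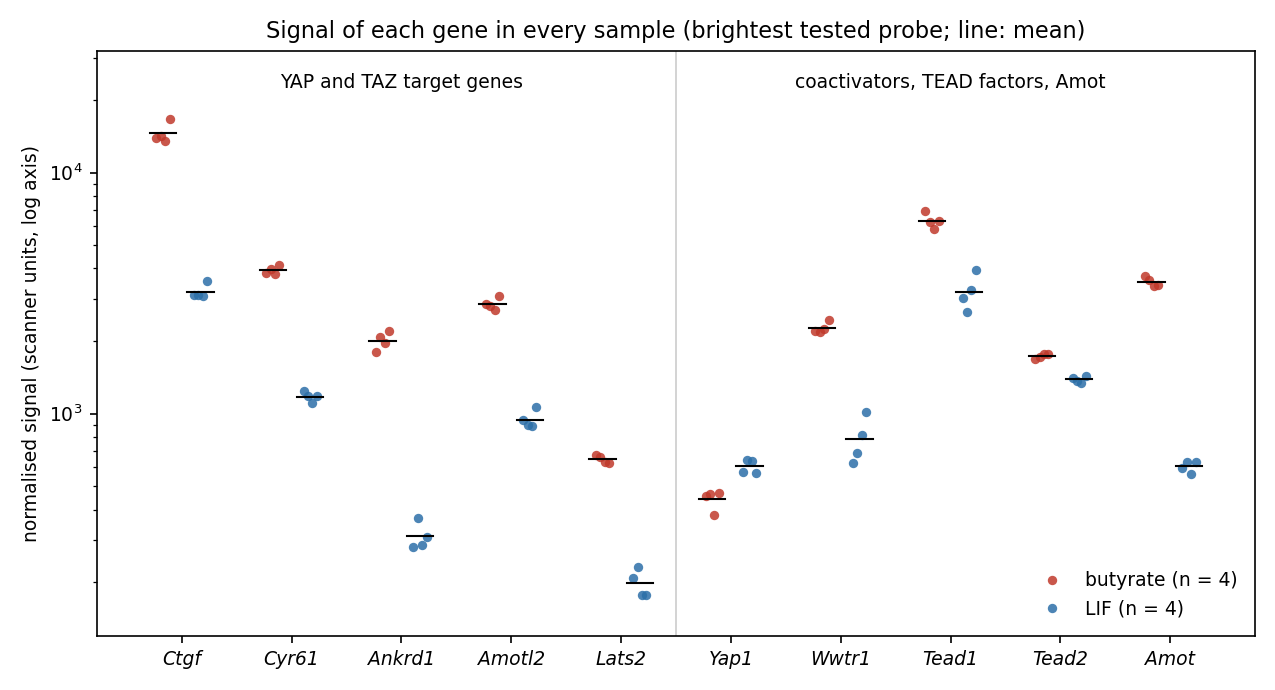
Normalised signal (scanner units, log axis) of the brightest tested probe of each gene in the 4 butyrate samples and, to their right, the 4 LIF samples, with 1 point per sample and a bar at the mean. The groups do not overlap for any of the 10 genes, and for Yap1 alone the butyrate samples are the lower ones; heights of different probes are not comparable.

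Among the targets, Ankrd1 had the largest ratio of the 10 genes. It encodes an ankyrin repeat protein of the nucleus and the muscle sarcomere. Its signal was 1800, 2072, 1962 and 2192 units in the butyrate samples, against 280.2, 370.2, 285 and 307 units in the LIF samples. Every butyrate sample lay several-fold above every LIF sample. The log2 ratio was 2.70 ± 0.15, or 6.48-fold (adjusted p = 2.27e-08), and 26 genes had a larger ratio. Genes of its chromosome, 19, had a median log2 ratio of 0.18 over 524 tested genes, against 0.02 on the other autosomes; the part of this in the result was not tested.

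Ctgf, now named Ccn2, encodes a secreted matrix-associated protein and is the most widely used readout of YAP activity. The butyrate samples gave 13928, 14147, 13537 and 16661 units, against 3104, 3094, 3081 and 3538 units in the LIF samples. Sample 4 was the brightest in both groups, and the groups were far apart. The 4 ratios of 2.17, 2.19, 2.14 and 2.24 averaged 2.18 ± 0.04, or 4.54-fold (adjusted p = 1.15e-08), with 77 genes higher. Cyr61, now Ccn1, encodes a relative of the same secreted family. It had 3821, 3993, 3786 and 4136 units in butyrate samples, against 1237, 1178, 1104 and 1188 units in LIF samples. Both groups were tight and did not overlap, and the log2 ratio was 1.74 ± 0.08, or 3.34-fold (adjusted p = 2.81e-08).

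The 3 inhibitor genes rose as well. Amot encodes angiomotin, a junction protein that binds Yap1 and holds it in the cytoplasm. One probe gave 3707, 3600, 3369 and 3409 units in butyrate samples, against 593, 631, 562 and 631 units in LIF samples. The ranges lay far apart, and the log2 ratio was 2.54 ± 0.09, or 5.83-fold (adjusted p = 1.15e-08), with 34 genes higher. The other 2 Amot probes were not well above background in any sample of either group and were not tested. The result for Amot thus rests on A_51_P321385, designed to a cDNA (AK129277) that the array file names Amot.

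Amotl2, a relative of angiomotin with the same action on Yap1, gave 2852, 2789, 2679 and 3067 units in butyrate samples, against 940, 895, 885 and 1063 units in LIF samples. No value of one group reached the other. The log2 ratio was 1.59 ± 0.05, or 3.02-fold (adjusted p = 2.54e-08).

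Lats2 encodes one of the kinases that phosphorylate Yap1 and Wwtr1. Its brightest probe gave 677, 659, 628 and 624 units in butyrate samples, against 209, 232, 178 and 176 units in LIF samples. The log2 ratio was 1.71 ± 0.15, or 3.28-fold (adjusted p = 1.21e-07). Its other 3 probes were dimmer and had log2 ratios of 1.16 ± 0.27, 0.67 ± 0.16 and 0.60 ± 0.15, each past the threshold over all tested probes. The 4 probes agreed in direction and differed in size, and their mean was 1.03. On all 4 probes the smallest ratio was on array 2, where the LIF signal was the highest of the 4. The scanner software's own log ratios carry no added offset and use other background and scaling steps. By these the same 4 probes read 2.22, 2.13, 1.27 and 1.91.

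**Figure D2:**
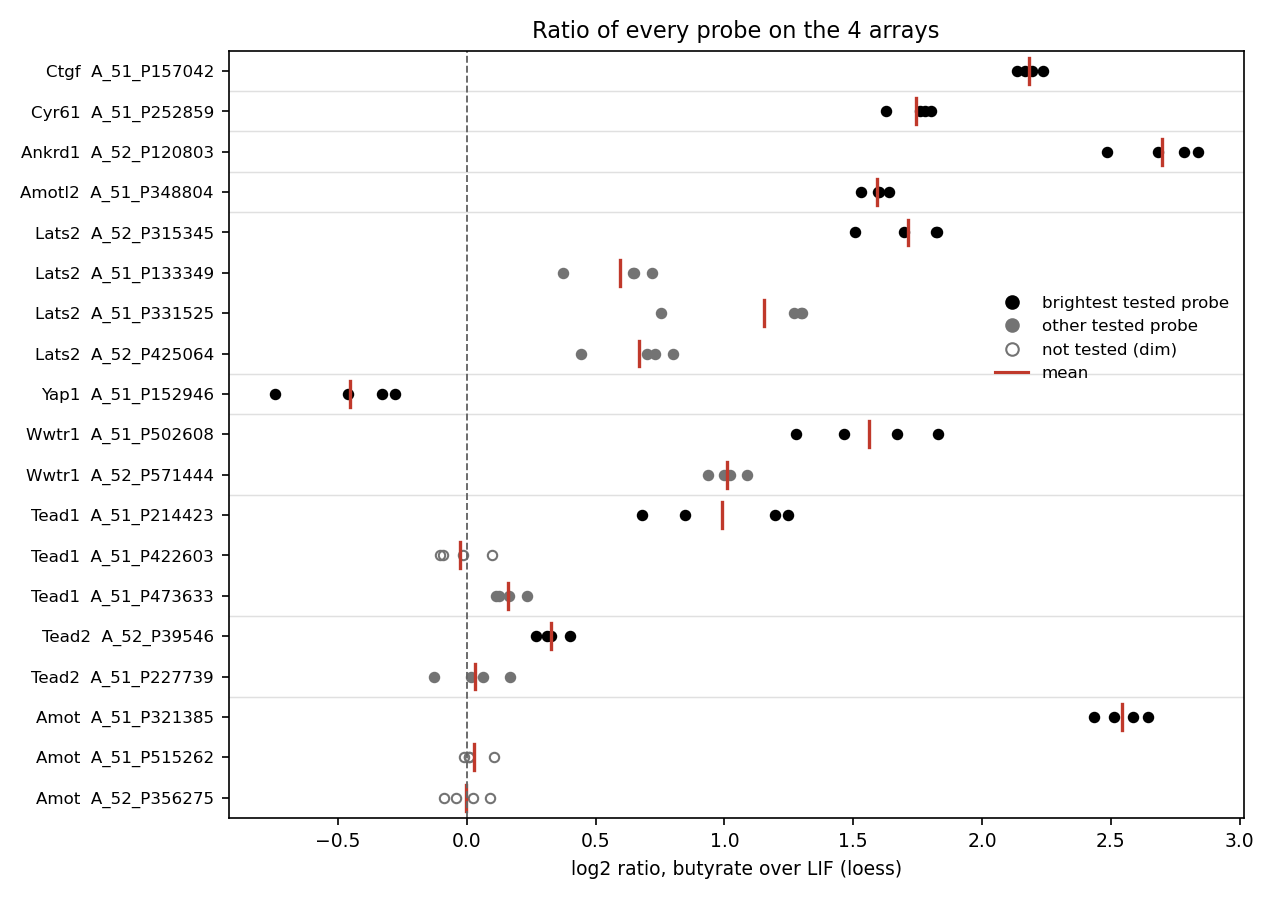
Log2 ratio of butyrate over LIF for all 19 probes on each of the 4 arrays, with filled points for tested probes, open points for probes too dim to test and a red bar at the mean. Yap1 lies left of 0 on every array, and the probes of Lats2, Wwtr1 and Tead1 differ in size.

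With loess scaling the 2 coactivator genes moved in opposite directions; with median centring in its place both ratios were positive, at 2.16 for Wwtr1 and 0.11 for Yap1. Wwtr1, also called TAZ, gave 2209, 2181, 2253 and 2454 units in butyrate samples on its brighter probe, against 621, 686, 817 and 1012 units in LIF samples. The spread was wider among LIF samples, and the groups did not overlap. The log2 ratio was 1.56 ± 0.24, or 2.95-fold (adjusted p = 1.06e-06). A second probe gave 1692, 1697, 1478 and 1698 units in butyrate samples, against 847, 888, 695 and 837 units in LIF samples, a log2 ratio of 1.01 ± 0.06 (adjusted p = 1.7e-07 over probes). Array probes named Taz are for tafazzin, another gene, and were not counted.

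Yap1, the paralogue of Wwtr1, gave 457, 466, 380.1 and 469.7 units in butyrate samples, against 575, 641, 637 and 569.7 units in LIF samples. Every butyrate sample was below every LIF sample, by a small margin relative to the other 9 genes. The log2 ratio was -0.45 ± 0.21, 1.37-fold lower in butyrate (adjusted p = 0.000641), from 1 probe. Under median centring its ratio of 0.11 did not pass (adjusted p = 0.486). Under that setting the median of all genes was 0.41, and 92.4% of the genes called were higher in butyrate, against 55.7% with loess. Relative to that median Yap1 stood at -0.29, so the sign of its ratio depended on the scaling while it lay below the median gene under both.

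On its brighter probe, the log2 ratio of Wwtr1 exceeded that of Yap1 by 2.16, 2.13, 2.21 and 1.56 on the 4 arrays, a mean of 2.01 ± 0.31. The second Wwtr1 probe had a mean log2 ratio of 1.01, so its gap to Yap1 was smaller. An exact two-sided sign-flip test gave p = 0.125, the smallest that 4 arrays allow.

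The TEAD factors, which bring the coactivators to DNA, had smaller ratios on most probes. Tead1 gave 6904, 6244, 5841 and 6280 units in butyrate samples on its brightest probe, against 3011, 2634, 3250 and 3925 units in LIF samples. The groups were apart, and the log2 ratio was 0.99 ± 0.27, or 1.99-fold (adjusted p = 2.49e-05). That probe and a dimmer one with a log2 ratio of 0.16 ± 0.06 carry an older clone name, 2610024B07Rik, which RefSeq lists as a synonym of Tead1. The probe that the array itself names Tead1 was well above background on 2 butyrate and 0 LIF arrays and was not tested. The mean of the 2 tested probes was 0.58, so the size for Tead1 varied with the probe.

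Tead2 gave 1687, 1721, 1772 and 1770.2 units in butyrate samples, against 1402, 1371, 1343 and 1428 units in LIF samples. The groups did not overlap, but the difference was small, with a log2 ratio of 0.33 ± 0.06, or 1.25-fold (adjusted p = 7.69e-05). On its second probe the groups overlapped, and the log2 ratio was 0.03 ± 0.12 (adjusted p = 0.607 over probes).

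By probe, 16 of the 19 were tested and 15 passed, 14 higher and 1 lower, where 72.2% of all tested probes passed. The brightest probes of all 10 genes had groups that did not overlap, 9 with butyrate higher and 1 with butyrate lower, against 68% of all tested genes in either direction, 38.6% with butyrate higher and 29.4% with butyrate lower.

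Other genes of the pathway were read from lists chosen for their roles, with earlier results of these data known. Counts and shares of these lists are therefore descriptive and test nothing. By the test used here 41.7% of all tested genes were higher and 33.3% lower. Of 40 kinases, scaffolds and polarity genes, 39 were tested, all but Fat4. In butyrate 27 of these were higher, 8 were lower and 4 did not pass, with a median log2 ratio of 0.33. Stk4, Taok2 and Strn, counted as higher, and Mink1 and Dchs1, counted as lower, each had another probe called in the opposite direction. Fewer genes were called in either direction when the mean of all tested probes stood for a gene. By the scanner software fewer were called higher and more were called lower. Under median centring 33 were higher and 0 were lower, and 5 were lower without replicate 1 and also 5 without replicate 3. At least 2-fold higher were 5 genes, 12.8% of the list against 4.97% of all genes. The largest ratios were 1.44 ± 0.13 for Wwc2, a relative of the scaffold Kibra, and 1.40 ± 0.04 for Map4k5, of a kinase family that can activate Lats1 and Lats2. Csnk1d, a casein kinase that marks Yap1 for degradation, had 1.37 ± 0.03, and the polarity scaffold Inadl, now Patj, had 1.10 ± 0.04. As the mean of all tested probes, Csnk1d had 0.70, Map4k5 had 0.92 and Inadl had 0.95, each under 2-fold.

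The core kinase genes, named here after their values were seen, had smaller ratios than the brightest probes of Amot, Amotl2 and Lats2. The difference was not tested. Dimmer probes of Lats2 had 1.16, 0.67 and 0.60, of which 0.67 and 0.60 lay below Mob1a. Lats1 had a log2 ratio of 0.47 ± 0.11, and the cofactors Mob1a and Mob1b had 0.70 ± 0.11 and 0.52 ± 0.09. Of the upstream kinases, Stk3 was lower (-0.24 ± 0.13) and Stk4 had 0.11 ± 0.06 with another of its probes called in the opposite direction. The adaptor Sav1, at 0.09 ± 0.05, was just past the threshold (adjusted p = 0.0497). Nf2, which encodes the membrane-linked activator merlin, was lower at -0.78 ± 0.06, and the kinase Taok3 at -0.57 ± 0.17. The lower calls of Stk3, Nf2 and Taok3 were those of the loess scaling, and none was called lower under median centring.

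**Figure D3:**
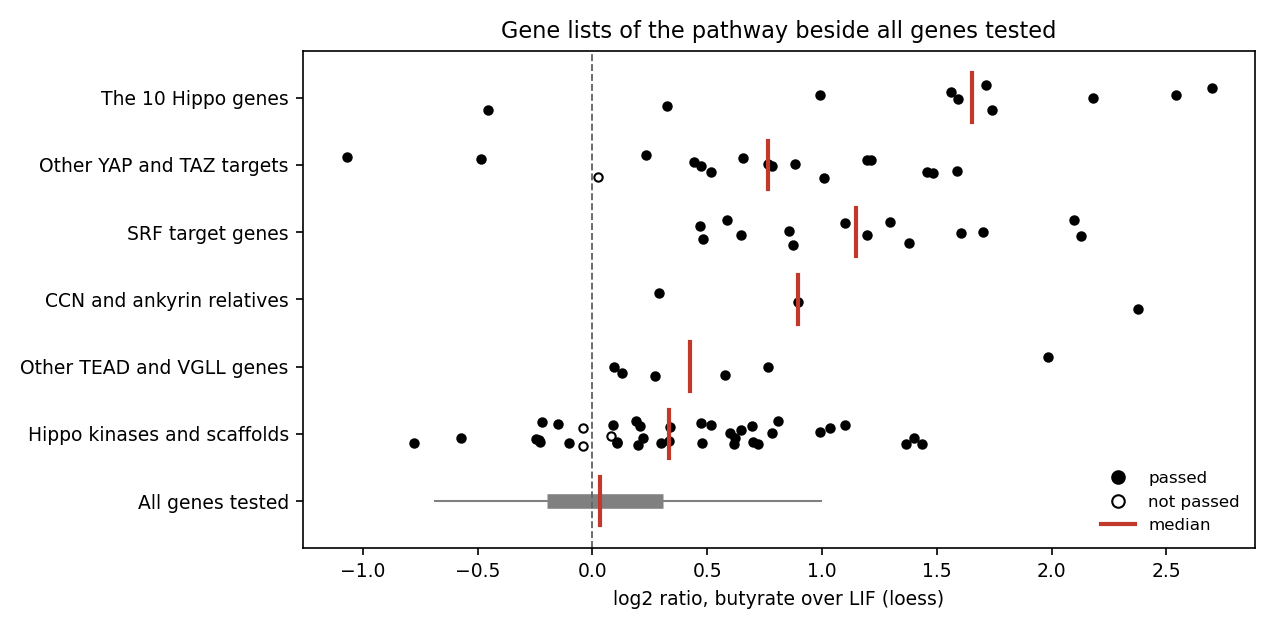
Log2 ratio of butyrate over LIF for each tested gene of the 10 followed here and of the related lists, with 1 point per gene, a bar at the median, and all tested genes shown by their median, a bar over the 25th to 75th percentiles and a line over the 5th to 95th. The serum response factor targets all lie above 0, and with loess scaling the kinases and scaffolds lie on both sides of it.

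The 6 remaining TEAD and vestigial-like genes were tested, and each passed with a higher value in butyrate. Of these, 3 met the filter through the butyrate channel, where they are high: Vgll2, Tead3 and Vgll1 were well above background on 0, 1 and 2 of the 4 LIF arrays. Requiring both channels to be well above background on every array left 3 genes, all called higher, so the count of 6 is not read as support. Vestigial-like proteins compete with Yap1 and Wwtr1 for TEAD factors or act beside them. Vgll3 had a log2 ratio of 1.99 ± 0.15, and 2.25 by the scanner software. For dimmer probes the size depended on the processing, the added 50 units included. The scanner software also applies its own background and scaling steps, so its values differ by more than the offset. Vgll4, known as an inhibitor of YAP, had 0.58 ± 0.16 with the offset and 1.85 by the scanner software. Likewise Vgll1 had 0.76 ± 0.25 with the offset and 2.33 by the scanner software, and Tead3 had 0.27 ± 0.16 and 1.33. With an offset of 16 units in place of 50, Vgll1 had 1.17, Vgll4 had 0.85 and Tead3 had 0.44. No size is therefore drawn from the offset values of Vgll1, Vgll4 and Tead3.

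A further 17 genes are known as YAP or TAZ targets in human cells. In butyrate 14 were higher, 2 were lower and 1 did not pass, and the median log2 ratio was 0.77. Foxf2 and Rbms3, counted among the 14, were well above background on 0 of the 4 LIF arrays, and 12 were higher when both channels had to be. Under median centring 15 were higher and 1 was lower. At least 2-fold higher were 6 genes, 35.3% of the list against 4.97% of all genes. The largest were the growth factor Tgfb2 at 1.59 ± 0.18, the clotting initiator F3 at 1.48 ± 0.07, the membrane repair gene Myof at 1.46 ± 0.13 and the IGF-binding gene Igfbp3 at 1.22 ± 0.08. As the mean of all tested probes Igfbp3 had 0.86, under 2-fold. Gadd45a, a stress and growth arrest gene, was lower at -1.07 ± 0.10, and so was Dock5, an activator of Rac, at -0.48 ± 0.18. The kinase gene Nuak2 had 0.02 ± 0.05 (adjusted p = 0.548).

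Among relatives of the CCN and ankyrin targets, 3 of 5 on the array were tested and all 3 passed with higher values in butyrate, at a median of 0.90. By the same test 41.7% of all tested genes were higher. Wisp1, now Ccn4, a secreted relative of Ctgf, had 2.38 ± 0.24. Ankrd2 and Ankrd23, both muscle ankyrin genes, had 0.90 ± 0.24 and 0.29 ± 0.07. By the scanner software, which adds no offset and applies its own background and scaling steps, Ankrd2 had 2.74 and Ankrd23 had 0.36. With an offset of 16 units Ankrd2 had 1.31. It was well above background on 3 LIF arrays. Requiring both channels to be so on every array left 2 genes called higher.

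Serum response factor and its actin-regulated cofactors share several targets with YAP, including Ctgf, Cyr61 and Ankrd1. All 14 genes listed as its other targets were higher in butyrate, 8 of them at least 2-fold, with a median log2 ratio of 1.15. Across all tested genes 41.7% were higher and 4.97% were at least 2-fold higher. The focal adhesion gene Zyx had 2.13 ± 0.07 and the LIM domain gene Fhl2 had 2.10 ± 0.17. The actin-binding genes Tagln and Tpm1 had 1.70 ± 0.10 and 1.61 ± 0.10. The summed signal of the 14 genes was 190420 to 206042 units in butyrate samples, against 76256 to 81895 units in LIF samples. The summed signal of the 10 Hippo genes was 36207 to 41064 units in butyrate samples, against 11732 to 13836 units in LIF samples. Such sums give most weight to the brightest probes, such as that of Ctgf, with a mean of 14568 units in butyrate samples.

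Markers of other cell types moved with these genes, and their part in the results was not tested. For the counts below, 41.7% of all tested genes were called higher and 33.3% lower. The 12 trophoblast markers were each called higher in butyrate, 1 of them, Elf5, with 0 LIF arrays well above background. Their summed signal was 141968 to 145122 units in butyrate samples, against 34886 to 39008 units in LIF samples. The largest were Esx1, Krt19, Cdx2 and Gata2, at log2 ratios of 3.14, 2.93, 2.77 and 2.66. Krt8 and Krt18 were saturated in butyrate samples, which caps their part of the summed signal there. Of 11 tested fibroblast markers, 9 were higher and 2 lower, with a summed signal of 13583 to 14288 units in butyrate samples, against 3031 to 3426 units in LIF samples. Among them Col1a1, Postn, Col5a1 and Col1a2 had log2 ratios of 4.15, 3.22, 1.86 and 1.72, Dcn was not well above background on any LIF array, and Lum was too dim to test. The 2 lower ones were Thy1 at -0.18 and Twist1 at -0.24. Of 10 stem cell markers 9 were lower and 1 higher, with a summed signal of 52940 to 59905 units in butyrate samples, against 88724 to 94963 units in LIF samples. Nr0b1, Tfcp2l1, Esrrb and Pou5f1 had the most negative ratios, at -2.42, -2.13, -1.58 and -1.57. The stem cell marker called higher was Nanog, at 0.23. Several of these sizes varied with the processing: by the scanner software Cdx2 had 3.93, Esx1 3.79 and Postn 5.08, and as the mean of all tested probes Col1a1 had 3.12, Col5a1 0.98, Tfcp2l1 -1.27 and Esrrb -0.86.

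Genes with a current symbol and outside the lists used here were ranked by the root mean square difference of their log2 ratios from Ankrd1. Over the 4 arrays the nearest were Col4a1 at 0.06, Rhox6 at 0.08 and Calcoco2 at 0.11. Each had a log2 ratio of 2.70, as Ankrd1 did, so they are alike in size, and shared regulation was not tested. Col4a1 encodes a basement membrane collagen, Rhox6 a homeobox protein and Calcoco2 an autophagy receptor.

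**Figure D4:**
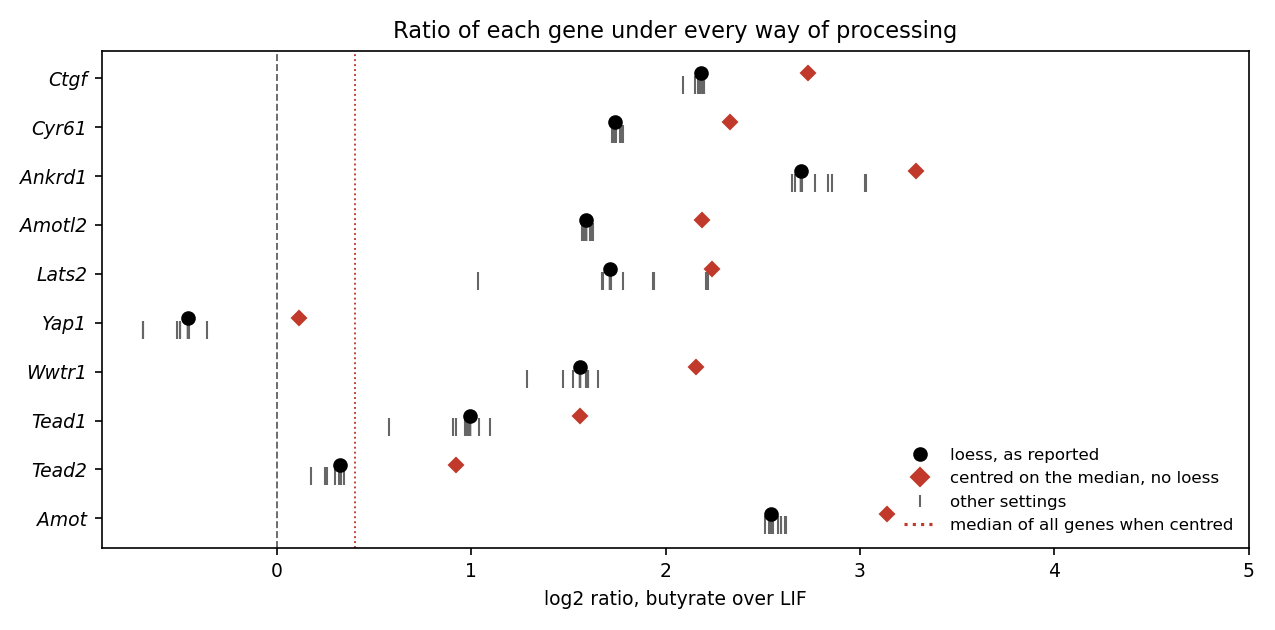
Log2 ratio of butyrate over LIF of each gene as reported (black), with median centring in place of loess (red), and under the other settings (grey ticks), with the all-gene median under centring as a dotted line. Yap1 is the gene whose sign differs between settings, and Lats2 has the widest spread among the grey ticks.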

How the data were processed

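Scanner intensity values, deposited as Agilent Feature Extraction 9.1 output per the submitters' processing notes, were read for 8 samples on 4 arrays. Per the labels, Cy5 held butyrate RNA and Cy3 held LIF RNA. The sources used here name no genome build. Starting with the deposited intensity values, limma 3.58.1 in R 4.3.3 corrected background (normexp, offset 50) and dye (loess within each array), with control spots at weight 0 and outlier spots missing. Spots of a probe were averaged. Testing required a probe to be well above background in one channel or the other, on 3 or more arrays. The brightest tested probe stood for a gene, and 17190 genes were fitted with lmFit and eBayes. Displayed signals were also scaled between arrays with the Aquantile method. The scanner's deposited log10 ratios, turned to log2, and the authors' deposited log2 value table served as alternatives. That table's columns hold quantile-normalised log2 signals. All had a median of 6.49, and their sorted values differed from those of the first column by at most 0.002. They followed the log2 processed signals (r at least 0.9996).

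Medians of the raw mean intensity per spot ran 110 to 111.4 in butyrate samples and 62.8 to 66 in LIF samples, and 62.7% to 63.9% of butyrate and 57.9% to 61.2% of LIF spots were well above background. With 4 arrays, their number limits the precision. Same-numbered samples shared an array. Their deviations from the group means correlated at 0.16 to 0.31, and those of other pairs at -0.21 to 0.10, so ratios within arrays were tested. All 4 arrays were on 1 slide, which left no batch to test.

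Named were all 10 genes with every probe, up to 4 genes with the largest absolute ratio among those passing in each other list, and the 3 genes nearest to Ankrd1; others are said to be chosen after their values were seen or are given as exceptions to a count. Members and lists were chosen with earlier results of these data known. The procedure was tested on simulated data. Promoters came from RefSeq tables and were searched in Python 3.11.15. Alternatives covered offset, background, normalisation, filter, probe choice, pairing and leaving out each replicate.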

Additional observations from a re-analysis of the deposited data

Results flagged for a closer look

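In 7 of 79 sets of 4 values, the highest or lowest value stood far from the other 3, by Dixon's criterion at the 95% level; chance flags about 1 in 20 sets. Of these, 4 were signals of 1 sample. Ctgf read 3538 units in LIF replicate 4, above the other LIF samples. Yap1 read 380.1 units in butyrate replicate 3, and the second Wwtr1 probe read 1478 units in the same sample, both below the other butyrate samples. The Lats2 probe A_51_P331525 read 157 units in LIF replicate 2, above the other LIF samples. The other 3 were log2 ratios. Ankrd2 was at 0.55 and Postn at 2.51 on array 2, each below its other arrays, and Ankrd23 was at 0.39 on array 1, above its other arrays. No cause was tested.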

How the results depend on the processing

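Under all 18 alternatives 9 of the 10 genes were called higher in butyrate, and Yap1 was called lower under all but one. Median centring in place of loess gave a log2 ratio of 0.11 for Yap1, 0 of the 10 genes lower, 0 of the kinases and scaffolds lower, 1 of the further YAP targets lower, and 798 of all genes lower against 5716. The cause of that shift was not tested. Requiring both channels well above background on every array left 3 TEAD and vestigial-like genes called higher, since fewer genes were tested. Leaving out 1 array at a time gave 5 to 7 kinases and scaffolds called lower, against 8. The count was 5 without replicate 1 and also 5 without replicate 3. With no replicate block, that is with the pairing on arrays ignored, 9 of the 10 genes were higher and 1 was lower, and 6995 of all genes were higher and 5514 lower; ignoring the pairing ended no call among the 10 genes. Signal over background limits the dim probes: the 2 further Amot probes and the probe named Tead1 gave no test, and the added offset draws ratios of dim probes toward 0, as for Lats2, Ankrd2, Vgll1, Vgll4 and Tead3.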
